A study of Mus musculus with 12 samples.

Results

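Galectins and annexins are described here through 7 mouse genes, Lgals1, Lgals3, Lgals9, Anxa1, Anxa2, Anxa4 and Anxa5, out of 11786 genes with a value. They were chosen by name with earlier results of these data known, so counts of members beside shares of all genes are descriptive only. All 7 were measured and passed the filter on low values. The RNA came from dendritic cells grown from mouse bone marrow with the cytokine GM-CSF and purified before extraction. The 4 groups, with 2 libraries each and 8 in all, were Ythdf1-/- cells (KO-labelled below) with tumour lysate, Ythdf1-/- cells alone, wild-type cells with tumour lysate and wild-type cells alone. Lysate means overnight culture with necrotic cells of B16-OVA, a mouse melanoma line that carries ovalbumin. Ythdf1 encodes a reader of the mRNA mark N6-methyladenosine. The labels give neither strain, age nor the altered part of Ythdf1, and do not say whether both libraries of a group stem from different mice or cultures. The p-values therefore measure only the spread between these libraries, which may be technical.

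Galectins are lectins that bind beta-galactoside sugars on glycoproteins and glycolipids. They are made in the cytosol, leave the cell without a signal peptide, and bind glycans outside cells or on the inner face of damaged endosomes and lysosomes. Annexins are cytosolic proteins that bind acidic phospholipids such as phosphatidylserine when calcium is present, and take part in membrane repair and vesicle traffic. Some members of both families are known in myeloid cells for their part in handling dying cells or in damping inflammation.

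The promoters of 3 members are shown, since Lgals3 and Anxa1 had large changes with lysate and Lgals9 was the member that differed between genotype labels without lysate. Each line gives the 250 bases before the RefSeq start, 5′ to 3′ on the gene's strand in build GRCm38.p6. Lgals3 lies at chr14:47373610-47373859 on the plus strand, Anxa1 at chr19:20390672-20390921 on the minus strand and Lgals9 at chr11:78984925-78985174 on the minus strand. Capitals mark matches to any of 8 motifs searched on both strands, among which overlapping matches run together.
Lgals3: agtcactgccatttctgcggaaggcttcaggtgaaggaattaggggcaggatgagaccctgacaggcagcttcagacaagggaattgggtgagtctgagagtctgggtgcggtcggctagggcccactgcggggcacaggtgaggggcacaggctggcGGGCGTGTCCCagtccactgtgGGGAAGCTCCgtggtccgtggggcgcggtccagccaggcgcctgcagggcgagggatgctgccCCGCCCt
Anxa1: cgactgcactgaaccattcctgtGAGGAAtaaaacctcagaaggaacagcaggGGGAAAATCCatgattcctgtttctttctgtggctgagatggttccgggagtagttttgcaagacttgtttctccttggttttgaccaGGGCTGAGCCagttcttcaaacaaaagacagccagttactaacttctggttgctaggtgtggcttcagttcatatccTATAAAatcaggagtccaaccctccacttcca
Lgals9: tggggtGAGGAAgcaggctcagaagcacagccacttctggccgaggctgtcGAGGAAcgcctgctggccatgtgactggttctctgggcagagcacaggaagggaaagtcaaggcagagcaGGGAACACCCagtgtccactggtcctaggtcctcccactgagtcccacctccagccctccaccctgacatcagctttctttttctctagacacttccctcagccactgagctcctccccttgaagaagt

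The motifs were AP-1 (TGANTCA), the antioxidant response element (TGACNNNGC), the GC box (GGGCGG), the E box (CACGTG), STAT (TTCNNNGAA), PU.1 (GAGGAA), NF-kB (GGG, any 5 bases, then CC) and the TATA box (TATAAA). Of the 7 members, 6 had a promoter among the RefSeq windows used, with 7 windows in all because Anxa4 has a second start. Lgals1 had none there, so the motif counts leave it out. The loose NF-kB pattern lay in 5 of these 7 windows and in 45.8% of the 32851 windows of the same length in RefSeq. PU.1 matched 2 of 7 (23.3% of all windows), once in Anxa1 and at 2 places in Lgals9. The TATA box matched 2 of 7 (12.4% of all), 32 to 27 bases before the start in Anxa1 and 17 to 12 bases before it in Anxa2. The GC box matched 2 of 7 (32.7% of all), in Lgals3 and, at 3 places, in Anxa2. AP-1 matched Anxa2 alone (6.75% of all) and the antioxidant response element Anxa4 alone (10.2% of all). The E box (6.02% of all) and STAT (7.02% of all) matched none of the 7. These matches describe letters and are not evidence of binding.

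Values are the deposited log2 levels per gene, read as a regularized logarithm of read counts, and each change is a log2 difference ± its standard error in limma. Library medians lay between 8.53 and 8.55, and the depth of each library is unknown. Ythdf1 itself did not check the genotype labels: its log2 change between KO-labelled and wild-type cells was -0.16 ± 0.081 with lysate (adjusted p = 0.202) and -0.030 ± 0.081 alone (adjusted p = 0.85). Directions between genotypes therefore rest on the labels. All 10 listed dendritic cell markers were measured, among them Itgax, Flt3, Zbtb46 and the MHC class II genes, and so were all 12 markers of macrophages and monocytes and 11 of 12 of neutrophils. In these bulk libraries fewer cells of a type and less RNA per cell cannot be told apart.

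Per kilobase of transcript, most members were among the abundant transcripts of these cells. In wild-type cells alone the log2 level per kilobase was 15.92 for Lgals3, above 99.9% of the 11420 genes with a transcript length, and 13.53 for Anxa2, above 99.2%. It was 13.04 for Anxa1, 12.88 for Anxa4, 12.63 for Anxa5 and 12.24 for Lgals1, each above at least 97.4% of genes. Lgals9 was lower, at 9.96 and above 86.5% of genes. The 2 libraries of a group differed by at most 0.27 log2 units in any member, in Lgals3 of KO-labelled cells alone.

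All 7 members rose with lysate in wild-type cells (limma, Benjamini-Hochberg adjusted over 11785 genes, threshold 0.05), where 10.2% of all genes rose. In KO-labelled cells 5 of 7 rose and 0 fell, where 8.28% of all genes rose and 6.92% fell, and Anxa2 and Anxa5 did not pass the test. Both lysate libraries lay above both untreated libraries for 6 of 7 members in KO-labelled cells, which held for 28.9% of all genes (the reverse for 0 of 7 and 30.2%). In wild-type cells they did so for 7 of 7, and for 28.5% of all genes. The median log2 change of the members was 0.47 in KO-labelled cells and 0.38 in wild-type cells, against medians over all genes of -0.0013 and -0.010. Over all genes 11.3% fell in wild-type cells, and 0 of the 7 members did.

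**Figure D1:**
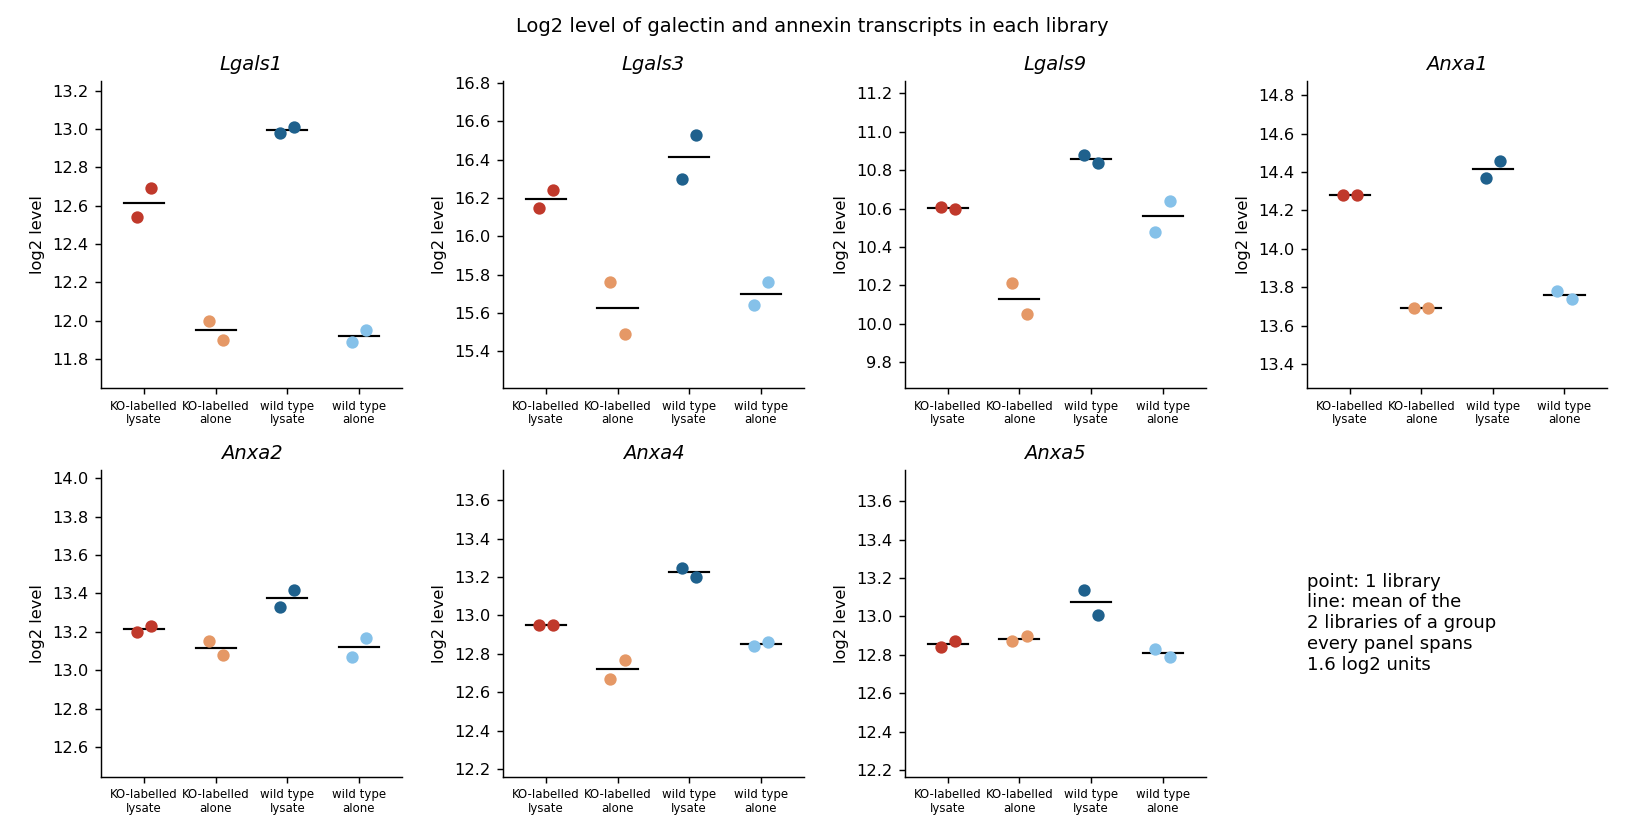
Log2 level (y axis, deposited values) of each of the 7 transcripts in each library, by group (x axis); points are libraries and lines are means of 2 libraries. Both wild-type lysate libraries lie above both wild-type libraries alone in every panel, and above both KO-labelled lysate libraries.

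Lgals1, which encodes galectin-1, a dimeric lectin known to push T cells towards tolerance or death, had the largest change of the 7. Its log2 level was 12.54 and 12.69 in KO-labelled cells with lysate, against 12.00 and 11.90 in KO-labelled cells alone. In wild type it was 12.98 and 13.01 with lysate, against 11.89 and 11.95 alone. The lysate libraries lay above those without lysate in both genotypes, the wild-type lysate libraries were highest, and the untreated libraries of both genotypes overlapped. The log2 change with lysate was 0.66 ± 0.071 in KO-labelled cells (1.58-fold, adjusted p = 8.27e-05) and 1.08 ± 0.071 in wild-type cells (2.11-fold, adjusted p = 7.49e-07). The wild-type change ranked 19 from the top of the 11785 genes tested.

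Lgals3 encodes galectin-3, long used as the macrophage antigen Mac-2 and known to gather on ruptured endosomes. Its log2 level was 16.15 and 16.24 in KO-labelled cells with lysate, against 15.76 and 15.49 alone, and 16.30 and 16.53 in wild-type cells with lysate, against 15.64 and 15.76 alone. Lysate libraries were above untreated ones in each genotype, and the untreated groups overlapped. The log2 change was 0.57 ± 0.098 in KO-labelled cells (1.49-fold, adjusted p = 0.00185) and 0.71 ± 0.098 in wild-type cells (1.64-fold, adjusted p = 0.000319). Both calls held in all 16 alternatives, with changes between 0.41 and 0.71 in KO-labelled cells and between 0.52 and 0.83 in wild type.

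Anxa1 rose about as far as Lgals3 in both genotypes. It encodes annexin A1, a glucocorticoid-regulated protein whose N-terminal part acts on formyl peptide receptors to limit inflammation. The log2 level was 14.28 and 14.28 in KO-labelled cells with lysate, against 13.69 and 13.69 alone, and 14.37 and 14.46 in wild-type cells with lysate, against 13.78 and 13.74 alone. The change was 0.59 ± 0.063 in KO-labelled cells (1.5-fold, adjusted p = 8.35e-05) and 0.65 ± 0.063 in wild-type cells (1.57-fold, adjusted p = 2.13e-05). The lysate groups did not overlap the untreated groups, and both calls held in all 16 alternatives.

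Lgals9 encodes galectin-9, a lectin with a pair of sugar-binding domains and a ligand of the receptor TIM-3. It had log2 levels of 10.61 and 10.60 in KO-labelled cells with lysate, against 10.21 and 10.05 alone. In wild-type cells it had 10.88 and 10.84 with lysate, against 10.48 and 10.64 alone. KO-labelled cells with lysate thus lay within the range of wild-type cells alone, KO-labelled cells alone were lowest and wild-type cells with lysate highest. The log2 change with lysate was 0.47 ± 0.078 in KO-labelled cells (1.39-fold, adjusted p = 0.00142) and 0.30 ± 0.078 in wild-type cells (1.23-fold, adjusted p = 0.0164). The wild-type call was lost without wild-type alone replicate 1 (change 0.22, adjusted p = 0.107) and without wild-type lysate replicate 1 (0.28, adjusted p = 0.1).

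Anxa4, a calcium-dependent phospholipid-binding annexin found at epithelial and vesicle membranes, rose in both genotypes. Its log2 level was 12.95 in both KO-labelled libraries with lysate, against 12.67 and 12.77 alone, and 13.25 and 13.20 in wild-type cells with lysate, against 12.84 and 12.86 alone. The log2 change was 0.23 ± 0.064 in KO-labelled cells (adjusted p = 0.0273) and 0.38 ± 0.064 in wild-type cells (1.3-fold, adjusted p = 0.00126). In KO-labelled cells the call held in 11 of 16 alternatives and was lost, among others, without KO-labelled alone replicate 1 (adjusted p = 0.21), without KO-labelled lysate replicate 1 (0.161) or replicate 2 (0.158), and with no mean-variance trend (0.0588).

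Anxa2 and Anxa5 passed the test with lysate in wild-type cells and not in KO-labelled cells, though the test of that difference did not pass. Annexin A2 pairs with S100A10 at the cell surface, where it binds plasminogen and its activator, and annexin A5 binds phosphatidylserine on dying cells, for which it is used as a stain. Anxa2 had log2 levels of 13.20 and 13.23 in KO-labelled cells with lysate, against 13.15 and 13.08 alone, and 13.33 and 13.42 in wild-type cells with lysate, against 13.07 and 13.17 alone. Anxa5 had 12.84 and 12.87 in KO-labelled cells with lysate, against 12.87 and 12.90 alone, and 13.14 and 13.01 in wild-type cells with lysate, against 12.83 and 12.79 alone. Only Anxa5 in KO-labelled cells had overlapping groups, while the Anxa2 groups were narrowly apart there.

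For Anxa2 the log2 change was 0.097 ± 0.066 in KO-labelled cells (95% interval -0.05 to 0.24, adjusted p = 0.348) and 0.26 ± 0.066 in wild-type cells (1.19-fold, adjusted p = 0.0157). For Anxa5 it was -0.027 ± 0.066 in KO-labelled cells (95% interval -0.17 to 0.12, adjusted p = 0.819) and 0.27 ± 0.066 in wild-type cells (1.21-fold, adjusted p = 0.0118). The Anxa2 call in wild type was lost when replicate 1 of the untreated group (adjusted p = 0.0909) or replicate 2 of the lysate group (0.0833) was left out. The Anxa5 call in wild type was lost when untreated replicate 2 (0.0855) or lysate replicate 1 (0.103) was left out.

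**Figure D2:**
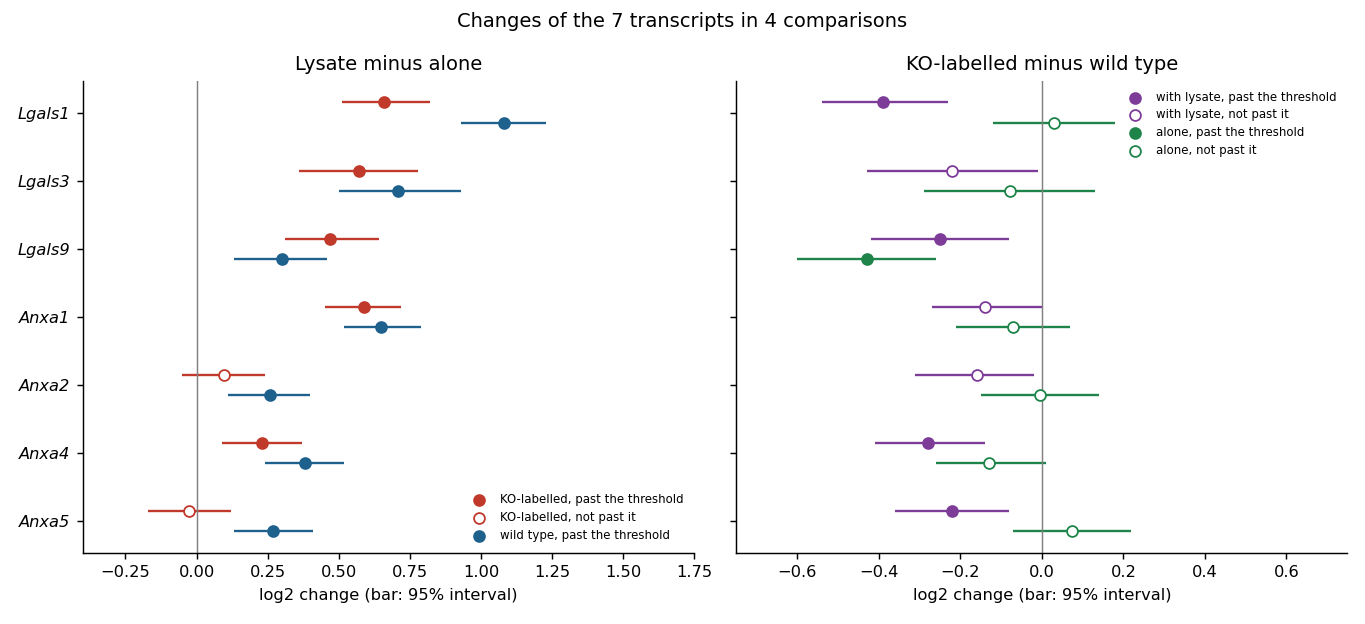
Log2 change (x axis) of each of the 7 transcripts (y axis) with lysate (left) and between genotype labels (right); bars are 95% intervals of the limma fit, filled points passed the adjusted threshold of 0.05 and open points did not. With lysate, wild-type changes run from 0.26 (Anxa2) to 1.08 (Lgals1), and Anxa5 in KO-labelled cells lies at -0.027.

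Markers of other cells moved with lysate as well. Of all genes 8.28% rose and 6.92% fell in KO-labelled cells, and 10.2% rose and 11.3% fell in wild-type cells. Of the 12 listed melanocyte and B16 markers 6 were measured, and 6 of 6 rose in each genotype. The summed log2 level of the pigment genes Dct, Tyrp1, Pmel and Slc45a2 was 7.86 to 7.98 in KO-labelled cells with lysate and 6.84 to 6.85 in KO-labelled cells alone. It was 7.63 to 7.74 in wild-type cells with lysate and 6.79 to 6.80 in wild-type cells alone. Over all 6 measured markers, which include Gpnmb and Mitf, also made by myeloid cells, the sum was 16.65 to 16.68 in KO-labelled cells with lysate and 16.04 to 16.10 alone, and 16.84 to 16.85 in wild-type cells with lysate and 16.15 to 16.19 alone. Dct and Tyrp1 lay at 4.75 in both wild-type libraries alone, far under the library medians. Of the 10 dendritic cell markers, 6 fell in KO-labelled cells and 7 in wild-type cells, with sums of 17.06 in both KO-labelled lysate libraries and 17.45 to 17.55 alone, and of 17.00 to 17.03 in wild-type cells with lysate and 17.38 to 17.51 alone. Of the 12 macrophage and monocyte markers 3 rose and 1 fell in KO-labelled cells, and 3 rose and 5 fell in wild-type cells, with all sums between 15.64 and 15.96. Of the 11 measured neutrophil markers 1 rose and 2 fell in KO-labelled cells, and 1 rose and 3 fell in wild-type cells. Of 3 measured stromal markers of 8, 0 passed in KO-labelled cells and 2 fell in wild-type cells, with sums of 6.87 to 7.64. The part of these markers in the members' changes was not tested.

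Between genotype labels with lysate, all 7 members had both KO-labelled libraries below both wild-type libraries, which held for 31.0% of all genes (the reverse for 29.6%). By the test 4 of 7 were lower in KO-labelled cells and 0 higher, where 5.45% of all genes were lower and 7.44% higher. Lgals1 differed most, with a log2 change of -0.39 ± 0.071 (adjusted p = 0.00404). Anxa4 had -0.28 ± 0.064 (adjusted p = 0.0132), Anxa5 -0.22 ± 0.066 (adjusted p = 0.0428) and Lgals9 -0.25 ± 0.078 (adjusted p = 0.04996, just under the threshold). The other members had changes of -0.22 ± 0.098 for Lgals3 (adjusted p = 0.152), -0.16 ± 0.066 for Anxa2 (adjusted p = 0.121) and -0.14 ± 0.063 for Anxa1 (adjusted p = 0.17). The median of the 7 was -0.22, against -0.0085 over all genes.

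These genotype calls depended on single libraries. Without KO-labelled lysate replicate 1 none of the 7 passed (Lgals1 -0.31, adjusted p = 0.114), and 193 genes in all passed in place of 1519. Without KO-labelled lysate replicate 2 or without wild-type lysate replicate 1, 1 of 7 passed, and the counts over all genes were 488 and 671. In the fit without wild-type lysate replicate 2 the Lgals9 call was lost (adjusted p = 0.122), and 716 genes passed in all. Lgals9 and Anxa5 also lost their calls under quantile normalization and with no mean-variance trend, and held them in 8 and 10 of 16 alternatives. The calls of Lgals1 and Anxa4 held in 15 and 13 of 16.

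Without lysate, only Lgals9 of the 7 differed between genotype labels, where 9.23% of all genes were lower in KO-labelled cells and 7.02% higher. The KO-labelled libraries lay below the wild-type libraries for 3 of 7 members (26.4% of all genes) and above them for 1 (26.4% of all genes). The Lgals9 log2 change was -0.43 ± 0.078 (adjusted p = 0.00217), the KO-labelled libraries lay below the wild-type libraries, and the call held in all 16 alternatives, with changes between -0.51 and -0.35. The changes of the other 6 members lay between -0.13 ± 0.064 for Anxa4 (adjusted p = 0.214) and 0.075 ± 0.066 for Anxa5 (adjusted p = 0.506). For Lgals1 the interval was -0.12 to 0.18.

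The lysate changes of the genotypes did not differ by the test in any of the 7 members, and 0.110% of all genes (13) passed for this difference. For Lgals1 the KO-labelled change minus the wild-type change was -0.41 ± 0.10 (95% interval -0.63 to -0.20, unadjusted p = 0.0011, adjusted p = 0.255 by limma). It passed in 1 of 15 alternatives, after GC content and transcript length were corrected for in every library (-0.41, adjusted p = 0.0141), which was chosen after the data were seen. For Anxa5 the difference was -0.30 ± 0.094 (interval -0.50 to -0.10, adjusted p = 0.398). Those of the other 5 lay between -0.16 ± 0.094 for Anxa2 and 0.18 ± 0.11 for Lgals9, with adjusted p of at least 0.713.

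Cell type markers differed between genotype labels too. Of all genes 5.45% were lower and 7.44% higher in KO-labelled cells with lysate, and 9.23% lower and 7.02% higher alone. Of 11 measured neutrophil markers 10 were lower in KO-labelled cells, with lysate and alone, with medians of -1.22 and -1.36. Their summed log2 level was 13.32 to 13.41 in KO-labelled cells with lysate, against 14.33 to 14.49 in wild-type cells with lysate. Alone it was 13.28 to 13.30 in KO-labelled cells, against 14.43 to 14.50 in wild-type cells. Of the 12 macrophage and monocyte markers 3 were lower with lysate and 6 alone, and of the 10 dendritic cell markers 5 were higher with lysate, and 2 higher and 1 lower alone. Of the 6 measured melanocyte markers 2 were higher with lysate in KO-labelled cells. Of the 3 measured stromal markers 0 passed with lysate and 3 were lower alone, with a median of -0.51. The part of these markers in the genotype differences was not tested.

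**Figure D3:**
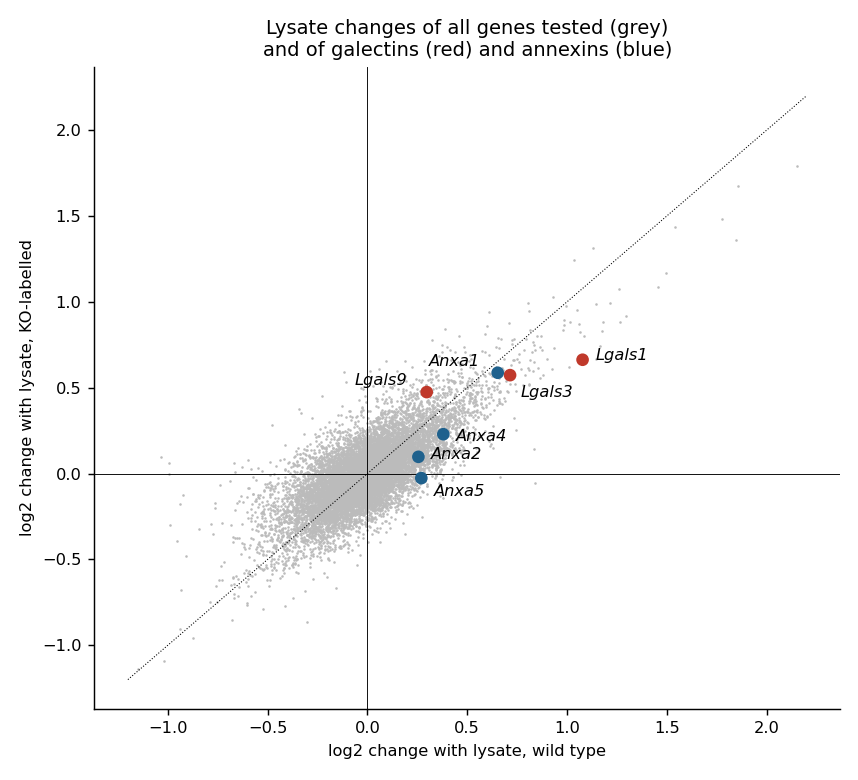
Log2 change with lysate in KO-labelled cells (y axis) against that in wild-type cells (x axis) for 11785 genes (grey), with galectins in red and annexins in blue; the dotted line marks equal changes. Lgals1 lies at 1.08 and 0.66, below the line, and Lgals9 at 0.30 and 0.47, above it.

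Some members ran more alike over the 8 libraries than others, measured as the root mean square difference after each gene was centred on its own mean. Genes were not scaled, so the measure also reflects the size of the changes, and genes with small changes lie close more readily. The closest pair was Anxa2 and Anxa5 (0.081 log2 units), followed by Lgals3 and Anxa1 (0.093) and by Anxa2 and Anxa4 (0.104). Lgals1 and Anxa5 were farthest apart (0.385). Among all other named genes, Lgals1 ran closest to Por (0.083), Fabp4 (0.088), a fatty acid carrier, and Atp6v0d2 (0.106), a proton pump subunit. Lgals3 ran closest to Plin2 (0.052), which coats lipid droplets, Ckb (0.065) and Ptgr1 (0.077). Anxa1 ran closest to Gpnmb (0.042), Plin2 (0.044) and Fblim1 (0.050).

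Genes close to Lgals9 included the integrin subunit gene Itgb2 (0.048) and Cd300lf (0.053). Anxa4 was closest to Entpd1 (0.029), which encodes the ectonucleotidase CD39, B3gnt2 (0.034) and Morrbid (0.036). Anxa2 was closest to Mdh2 (0.022), Eef1g (0.027) and Fam50a (0.029), and Anxa5 to Hspb11 (0.041), Serbp1 (0.041) and Pa2g4 (0.042). Of the 21 nearest genes, 3 for each member, 9 were still among the nearest 3 under quantile normalization and 5 when only the 4 group means were compared, so the names depend on small differences.

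Other galectins and annexins moved less uniformly. Of 8 further galectin genes listed 3 were measured. Lgals8, encoding a galectin that also binds glycans of damaged vesicles, rose by 0.30 ± 0.078 in KO-labelled cells (adjusted p = 0.0212) and by 0.29 ± 0.078 in wild-type cells (adjusted p = 0.0198), and each call held in 14 of 16 alternatives. It was lost without either KO-labelled lysate library in the first case, and, in the second, when untreated replicate 2 or lysate replicate 1 of wild type was left out. Lgals4 had 0.0085 ± 0.089 with lysate in KO-labelled cells (adjusted p = 0.958). It rose by 0.28 ± 0.089 in wild-type cells (adjusted p = 0.0406), a call held in 9 of 16 alternatives. Lgals4 was higher in KO-labelled cells than in wild type alone (0.43 ± 0.089, adjusted p = 0.00504), opposite in sign to Lgals9. Its log2 levels, 6.45 to 6.95, lay under the library medians, and its reads can be shared with the close copy Lgals6. Lgalsl passed no test.

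Among the 5 measured of 8 further annexins, Anxa6, a large annexin of endosomes, rose with lysate by 0.28 ± 0.074 in KO-labelled cells (adjusted p = 0.0226) and by 0.30 ± 0.074 in wild-type cells (adjusted p = 0.0129). The first call was lost without KO-labelled alone replicate 2 or either KO-labelled lysate library, and the second without replicate 1 of either wild-type group. Anxa3, an annexin abundant in neutrophils, went the other way. Its log2 level was 12.30 and 12.19 in KO-labelled cells with lysate, against 12.54 and 12.60 alone, and 11.97 and 12.04 in wild-type cells with lysate, against 12.18 and 12.16 alone. It fell by 0.33 ± 0.066 on the log2 scale with lysate in KO-labelled cells (adjusted p = 0.00533, lost without KO-labelled lysate replicate 2), and had -0.17 ± 0.066 in wild-type cells (adjusted p = 0.0889). Between genotypes alone it was higher in KO-labelled cells (0.40 ± 0.066, adjusted p = 0.00116, held in all 16 alternatives), where 10 of the 11 neutrophil markers were lower. With lysate it was also higher (0.24 ± 0.066, adjusted p = 0.0289), a call held in 10 of 16 alternatives and lost when any of the 4 lysate libraries was left out and with no mean-variance trend. Anxa7, Anxa9 and Anxa11 passed no test.

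Of 5 measured transcripts of S100 proteins that bind annexins, 0 rose with lysate in either genotype. In KO-labelled cells 2 fell, where 6.92% of all genes fell. S100a10, the partner of annexin A2, had changes of -0.12 ± 0.069 in KO-labelled cells (adjusted p = 0.264) and 0.025 ± 0.069 in wild-type cells (adjusted p = 0.828). S100a11, a partner of annexin A1, had 0.099 ± 0.071 in KO-labelled cells (adjusted p = 0.379) and 0.037 ± 0.071 in wild-type cells (adjusted p = 0.749). S100a4 fell by 0.31 ± 0.090 (adjusted p = 0.0358) and S100a1 by 0.26 ± 0.083 (adjusted p = 0.0481) in KO-labelled cells, calls held in 11 and 10 of 16 alternatives. Each was lost without KO-labelled alone replicate 1, without either KO-labelled lysate library and with no mean-variance trend, S100a4 also under quantile normalization and S100a1 also under median centring. Between genotypes with lysate 1 of the 5 passed, where 5.45% of all genes were lower. It was S100a1, lower in KO-labelled cells (-0.29 ± 0.083, adjusted p = 0.038), a call held in 11 of 16 alternatives.

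**Figure D4:**
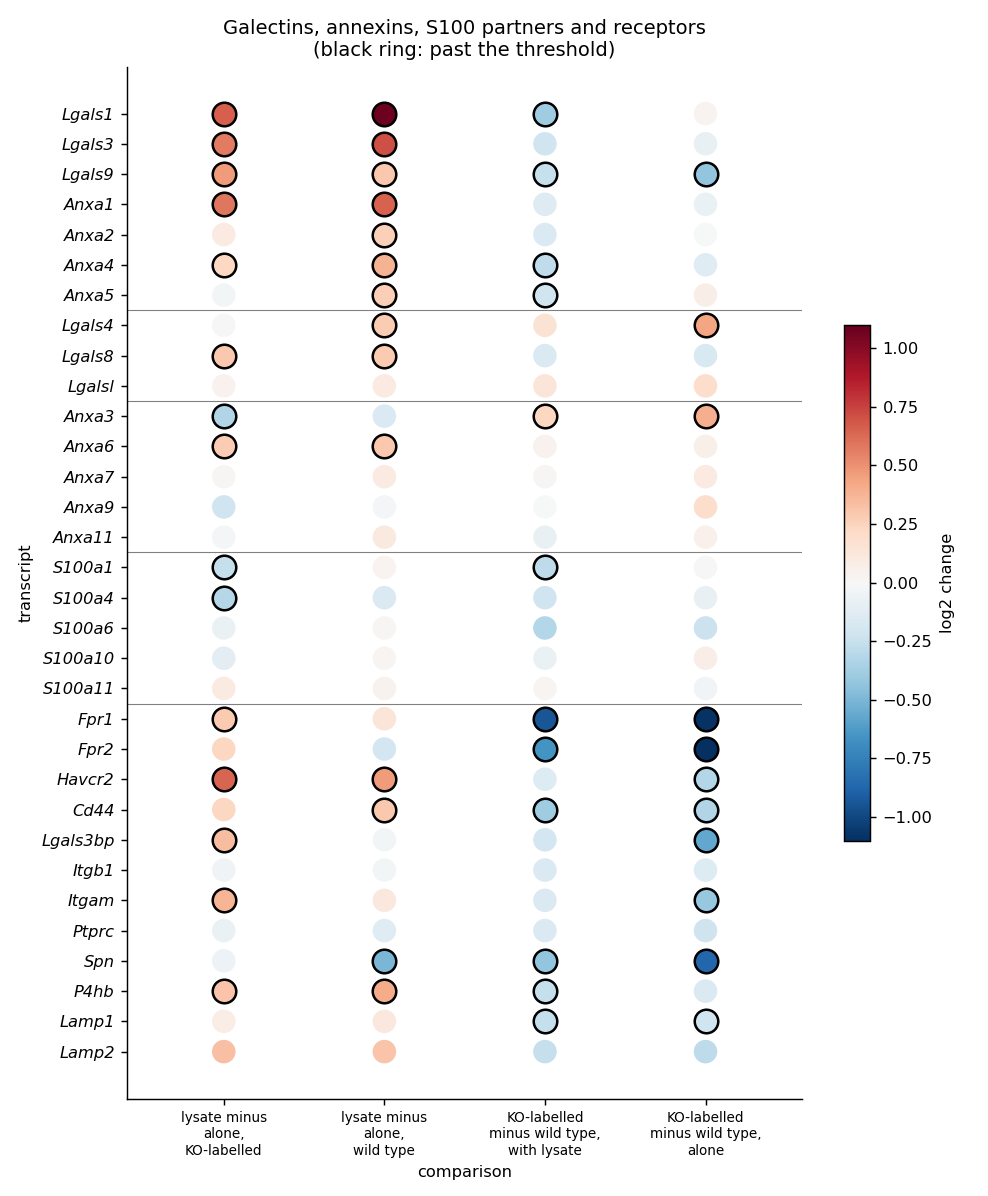
Log2 change (colour) of the 7 members, other galectins, other annexins, S100 partners and receptors or ligands (rows, parted by lines) in 4 comparisons (columns); a black ring marks an adjusted p under 0.05. Fpr1 and Fpr2 are the deepest blue in both genotype columns, at -1.09 and -1.1 without lysate.

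Of 12 receptors and ligands of these proteins, 6 were lower in KO-labelled cells with lysate and 8 without it, against 5.45% and 9.23% of all genes, and 0 were higher. Fpr1 and Fpr2, formyl peptide receptors of which FPR2 is a receptor for annexin A1, stood apart. The log2 level of Fpr2 was 8.74 and 8.61 in KO-labelled cells with lysate, against 9.32 and 9.36 in wild-type cells with lysate, and 8.34 and 8.54 in KO-labelled cells alone, against 9.71 and 9.37 in wild-type cells alone. The change was -0.66 ± 0.11 with lysate (adjusted p = 0.00188) and -1.1 ± 0.11 alone (adjusted p = 2.92e-05). For Fpr1 it was -0.94 ± 0.089 with lysate (adjusted p = 7.62e-05) and -1.09 ± 0.089 alone (adjusted p = 7.03e-06). All 4 calls held in each of 16 alternatives. Formyl peptide receptors are abundant in neutrophils and monocytes, and the reads of Fpr2 can be shared with close copies of its gene family.

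Havcr2, which encodes TIM-3, rose with lysate together with its ligand gene Lgals9, by 0.64 ± 0.074 in KO-labelled cells (adjusted p = 0.000132) and by 0.47 ± 0.074 in wild-type cells (adjusted p = 0.000765). Without lysate it was lower in KO-labelled cells (-0.32 ± 0.074, adjusted p = 0.00982), as Lgals9 was, a call lost without wild-type alone replicate 1. Spn, encoding the sialoglycoprotein CD43, a glycoprotein that galectin-1 binds on T cells, was lower in KO-labelled cells with lysate (-0.43 ± 0.081, adjusted p = 0.00458, lost without KO-labelled lysate replicate 1) and alone (-0.87 ± 0.081, adjusted p = 1.91e-05). With lysate 5 of the 12 rose and 0 fell in KO-labelled cells, where 8.28% of all genes rose and 6.92% fell. In wild-type cells 3 rose and 1 fell, where 10.2% of all genes rose and 11.3% fell.

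In the plasminogen system, which annexin A2 binds at the cell surface, 2 of 6 genes rose with lysate in KO-labelled cells and 3 of 6 in wild-type cells. Of all genes 8.28% and 10.2% rose. Of the 6, 0 fell in KO-labelled cells and 1 in wild-type cells, against 6.92% and 11.3% of all genes. Plau, encoding the urokinase activator, rose by 0.52 ± 0.070 in KO-labelled cells (adjusted p = 0.00033) and by 0.81 ± 0.070 in wild-type cells (adjusted p = 7.51e-06), both in all 16 alternatives. Plat, the tissue-type activator, rose by 0.49 ± 0.093 in KO-labelled cells (adjusted p = 0.00331, lost without KO-labelled lysate replicate 1) and by 0.32 ± 0.093 in wild-type cells (adjusted p = 0.0286, lost without any of the 4 wild-type libraries). Plaur, the urokinase receptor, was lower in KO-labelled cells alone (-0.33 ± 0.078, adjusted p = 0.0113, lost without replicate 2 of either group alone).

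Enzymes that build the glycans galectins bind moved in both directions. Of 16 measured, 4 were higher and 1 lower with lysate in KO-labelled cells, where 8.28% of all genes rose and 6.92% fell. In wild-type cells 3 were higher and 4 lower, where 10.2% of all genes rose and 11.3% fell. Between genotypes 4 were lower with lysate and 5 alone, against 5.45% and 9.23% of all genes. In both cases 0 were higher, against 7.44% and 7.02% of all genes. St3gal4, a sialyltransferase, was lower in KO-labelled cells, with changes of -0.50 ± 0.085 with lysate (adjusted p = 0.00257) and -0.69 ± 0.085 alone (adjusted p = 0.00015). B4galt1, which adds the galactose of lactosamine units, was lower too, with -0.31 ± 0.068 with lysate (adjusted p = 0.0113, lost without wild-type lysate replicate 2 or either KO-labelled lysate library) and -0.37 ± 0.068 alone (adjusted p = 0.00225). Mgat5, the branching enzyme of N-glycans, rose with lysate in KO-labelled cells (0.51 ± 0.093, adjusted p = 0.00281) and had 0.028 ± 0.093 in wild-type cells (adjusted p = 0.862). The difference between these lysate changes was 0.48 ± 0.13 (adjusted p = 0.327). Between genotypes Mgat5 was lower in KO-labelled cells alone (-0.39 ± 0.093, adjusted p = 0.0112) and had 0.087 ± 0.093 with lysate (adjusted p = 0.574). Gcnt1, which builds core branches of O-glycans, rose by 0.28 ± 0.075 in KO-labelled cells (adjusted p = 0.0229, lost without KO-labelled alone replicate 1 or either KO-labelled lysate library) and by 0.42 ± 0.075 in wild-type cells (adjusted p = 0.0018).

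Among 14 measured genes of membrane repair and damaged lysosomes, 2 rose with lysate in each genotype and 0 fell, a share near the 8.28% of all genes that rose in KO-labelled cells and the 10.2% in wild-type cells. Capn2, the calcium-activated protease calpain-2, rose by 0.37 ± 0.063 in KO-labelled cells (adjusted p = 0.00201) and by 0.47 ± 0.063 in wild-type cells (adjusted p = 0.000294). Myof, encoding myoferlin, rose by 0.42 ± 0.065 in KO-labelled cells (adjusted p = 0.000872) and by 0.33 ± 0.065 in wild-type cells (adjusted p = 0.00335), and these 4 calls held in all 16 alternatives. Trim16, a galectin-3 partner in the handling of damaged lysosomes, was lower in KO-labelled cells alone (-0.60 ± 0.089, adjusted p = 0.00054, held in all 16 alternatives) and had -0.27 ± 0.089 with lysate (adjusted p = 0.0651). The log2 levels of Trim16, 5.55 to 6.23, lay under the library medians. Tecpr1, a lysosome-associated autophagy gene, was higher in KO-labelled cells alone (0.31 ± 0.081, adjusted p = 0.0196), a call lost without replicate 1 of either group alone and when only the groups compared were fitted. With lysate, 0 of the 14 passed between genotypes.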

How the data were processed

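RNA-seq of 8 libraries was analysed, with groups and replicate numbers from the sample titles. The 4 RNA immunoprecipitation samples were not analysed here. The deposited table holds log2 values, read as made by the authors with the regularized logarithm of DESeq2 from the table's name and the submitters' processing notes, which also name STAR, deepTools and mm9. The sources used here give no counting tool, strand setting or annotation. Such values shrink the changes of low genes. Values lay between 3.24 and 17.88.

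Of 11786 Entrez identifiers 11744 had a symbol in the GRCm38.p6 table, which served for names and promoters only. Lengths and GC content came from protein-coding GENCODE transcripts (11420 genes, 96.9%). Genes with a largest group mean of at least 4 were tested, which removed 1 and left 11785. All 8 libraries entered 1 limma 3.58.1 fit in R 4.3.3 (group means, eBayes with trend, two-sided, Benjamini-Hochberg, threshold 0.05), with 4 residual and 9.33 prior degrees of freedom. The fit was tested on simulated data. Intervals are 95% and use the moderated degrees of freedom. Figures used Python 3.11.15.

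The members and lists were chosen with earlier results of these data known. Genes named were the members, Ythdf1, listed galectins, annexins and S100 genes past the threshold in any comparison, up to 4 genes of each further list with the smallest p, and the 3 genes most like each member, leaving out predicted symbols. Some genes that this rule names are not reported here. S100a10, S100a11, Lgalsl, Anxa7, Anxa9, Anxa11 and the markers named fall outside that rule and were chosen after their values were seen. Alternatives were no filter, a filter at 6, a replicate block, median centring, quantile normalization, no mean-variance trend, only the groups compared and leaving out each library in turn. A lone library then takes its spread from the remaining groups. A correction of every library for GC content and transcript length was added after the data were seen.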

Additional observations from a re-analysis of the deposited data

How the results depend on the processing

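Of 553 values of the members' changes under alternatives, 522 kept their direction and their side of the threshold, 28 lost their call, 3 gained one and 0 reversed while called. The 3 gains all came after removal of the GC and length trend: Anxa2 with lysate in KO-labelled cells (0.13, adjusted p = 0.0482), Lgals3 between genotypes with lysate (-0.22, adjusted p = 0.0278) and the Lgals1 difference of lysate effects. The number of members past the threshold between genotypes with lysate was 4, and 2 under quantile normalization and 2 with no mean-variance trend; the cause was not tested. For the difference of the lysate effects it was 0, and 1 after the GC and length trend was removed.

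Counts over all genes that moved by over 1.5 times were as follows. With the GC and length trend removed they were 2903 (in place of 1792) for lysate in KO-labelled cells, 3023 (1915) for genotype alone, 2617 (1519) for genotype with lysate and 81 (13) for the difference of the lysate effects. With only the groups compared, 1196 passed for genotype alone. For the difference of the lysate effects 8 passed with the filter at 6, where fewer genes were tested, and 1 with no mean-variance trend. The cause of the other moves was not tested.

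Leaving out 1 library at a time gave 5 to 7 members with lysate in wild type, 4 to 5 in KO-labelled cells, 1 to 1 between genotypes alone, 0 to 4 with lysate and 0 to 0 for the difference. Over all genes the counts were 1031 to 3152, 564 to 2275, 1174 to 1865, 193 to 2057 and 0 to 32 in the same order. The lowest came for lysate in wild type when untreated replicate 2 (1031) or lysate replicate 1 (1104) was left out, without KO-labelled lysate replicate 1 (564) or 2 (567) or KO-labelled alone replicate 1 (1109) for lysate in KO-labelled cells, and without wild-type alone replicate 1 (1174) or 2 (1190) for genotype alone. For the difference of the lysate effects 32 passed without KO-labelled alone replicate 1, and 0 to 4 without any wild-type library or either KO-labelled lysate library.

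The replicate numbers share only a number: deviations of same-numbered libraries correlated between -0.61 and 0.26 over genes. With a replicate block 7 members passed for lysate in wild type, 4 in KO-labelled cells, 1 between genotypes alone and 2 with lysate. The member calls that did not pass with the block were Anxa4 with lysate in KO-labelled cells (adjusted p = 0.0552), and Lgals9 (0.0873) and Anxa5 (0.0782) between genotypes with lysate. Among other genes named, the block also ended calls of Anxa3 and S100a1. With the block 1 gene in all passed for the difference of the lysate effects. Since these values are not counts, no limit from depth is given.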
